A study of Mus musculus with 12 samples.

Results

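The 46 cell cycle and DNA replication genes described here were chosen by name from a table of 16971 listed genes, and all 46 were found in it. They were 10 genes of G1 and the G1/S step, 3 inhibitors of cyclin-dependent kinases, 10 genes of DNA synthesis (S phase) and 23 genes of G2 and mitosis (G2/M). The values came from GFP+ cells sorted from the nonparenchymal liver fraction of adult mice of genotype Prom1CreERT2-nLacZ/+;Rosa26Lsl-GFP/+ on a C57BL/6 background (C57BL/6N for the Prom1 line and C57BL/6J for the reporter line), all of which had received tamoxifen 7 days before surgery. The sort gate was set on wild type livers. The day 0 group (labelled sham, and described in the study's text as before BDL) had 3 libraries, BDL day 3 (bile duct ligation, which blocks bile flow) had 3, and BDL day 14 had 6 labelled libraries, of which 4 entered the table. Mice of both sexes were used and the mix was not the same in the 3 groups, with females in the majority on day 0 and males at both later times, so sex and time cannot be fully told apart. *Prom1* drives the inducible Cre, so GFP marks cells that expressed *Prom1* at the time of tamoxifen, together with their progeny, and does not report whether a cell still expresses it.

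A dividing cell passes from G1 into S phase when D-type cyclins with Cdk4 and Cdk6, then E-type cyclins with Cdk2, free the E2F factors that switch on replication genes. The MCM helicase, Pcna and the enzymes of nucleotide supply then copy the DNA. Genes of G2 and mitosis are switched on later, in large part through B-Myb (*Mybl2*) and Foxm1 acting on promoters that carry the CHR element, and their transcripts are commonly read as the mark of cells that are dividing. Most liver cells of a healthy adult are out of cycle, whereas cholangiocytes, macrophages and mesenchymal cells can enter it after obstruction of the bile duct.

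The table gives 1 mean of normalized counts per group, as the authors computed it, and no value for any single library apart from the highest count of each gene. No test between groups could therefore be made. Differences are given as log2 ratios of the authors' means, and a gene is called higher or lower where the ratio is above 1.5-fold. The spread of the libraries about their group means was worked out for each gene from the gap between the group means and the geometric mean over the 10 libraries, under the assumption that it was equal in the 3 groups on the log scale, and it gave the standard errors printed below. This spread had a median of 0.58 on the log2 scale over all genes kept and of 0.74 over the members, which ranged from 0.23 for *Cdk4* to 1.81 for *Ccnb1*. A gene was kept where its normalized counts summed to at least 10, which held for 12889 genes and for 45 members, all but *Aurka*. The group that held the highest library could not be told for 40 of the members. For such genes, members or not, values given without that library leave it out of the group that brings the ratio nearest to no change. That group was chosen for each comparison apart, so these values are a possible case and not a known effect of removal.

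The lowest mean of each group, shared by many genes, was read as an offset worth 1 read per library. On this reading a library held about 7210000 reads on day 0, 11600000 on BDL day 3 and 12100000 on BDL day 14, and the reads behind a mean are estimates. Means at or under 0.512, 0.292 and 0.244 normalized counts in the 3 groups correspond to at most 3 reads per library above the offset and are given as a floor. *Aurka* on day 0 and *Bub1*, *Cenpf* and *Kif11* on BDL day 3 lay there.

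The sorted cells were not of 1 type in any group. Summed over 8 macrophage markers, the mean was 10200 on day 0, 19600 on BDL day 3 and 19300 on BDL day 14, while the sum over 5 Kupffer cell markers was 9210, 20900 and 1280. The macrophage sum on BDL day 14 was in large part *Lyz2*, with means of 2280, 4560 and 11200, and the other 7 markers summed to 7950, 15000 and 8120. The 6 markers of recruited monocytes and macrophages summed to 118, 243 and 1860, and the 4 dendritic cell markers in the table to 23.2, 33.6 and 82.0. Of the dendritic cell sums, *Itgax* made up 6.71, 27.0 and 65.5, and the other 3 markers 16.5, 6.62 and 16.5. The 8 cholangiocyte markers summed to 522, 203 and 829, of which *Spp1* made up 459, 175 and 792 and the other 7 markers 63.4, 28.3 and 37.4. The 6 endothelial markers summed to 882, 561 and 863. Of these sums *Clec4g* made up 241, 69.5 and 365, and the other 5 markers 641, 492 and 498. The 6 mesenchymal markers summed to 1140, 21.0 and 107. The 8 hepatocyte markers summed to 3310, 955 and 401, the 5 B cell markers to 366, 87.0 and 55.4, and the 4 erythroid markers in the table to 47400, 4830 and 2950. *Prom1* itself had means of 6.66, 0.956 and 1.76. In bulk samples fewer cells of a type and less RNA per cell cannot be told apart, and the part of these shifts in the values below was not tested.

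At BDL day 3, 6 of the 45 members were higher than on day 0, 18 were lower and 21 were neither. Over all genes kept, 48.4% were past the fold, 19.2% higher and 29.2% lower. The median log2 ratio was -0.17 over the members and -0.02 over all genes. At BDL day 14 against day 0, 13 members were higher and 5 lower, where 49.9% of all genes were past the fold, 21.2% higher and 28.8% lower. Between BDL day 3 and BDL day 14, 24 members were higher at the later time and 4 lower, where 40.9% of all genes were past the fold, 21.2% higher and 19.7% lower. With the groups scaled to a common sum this last split was 28 higher and 1 lower. Each pair of these comparisons shares 1 group of libraries, so they are not independent of each other. The phases did not move alike, and they are described in turn.

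**Figure D1:**
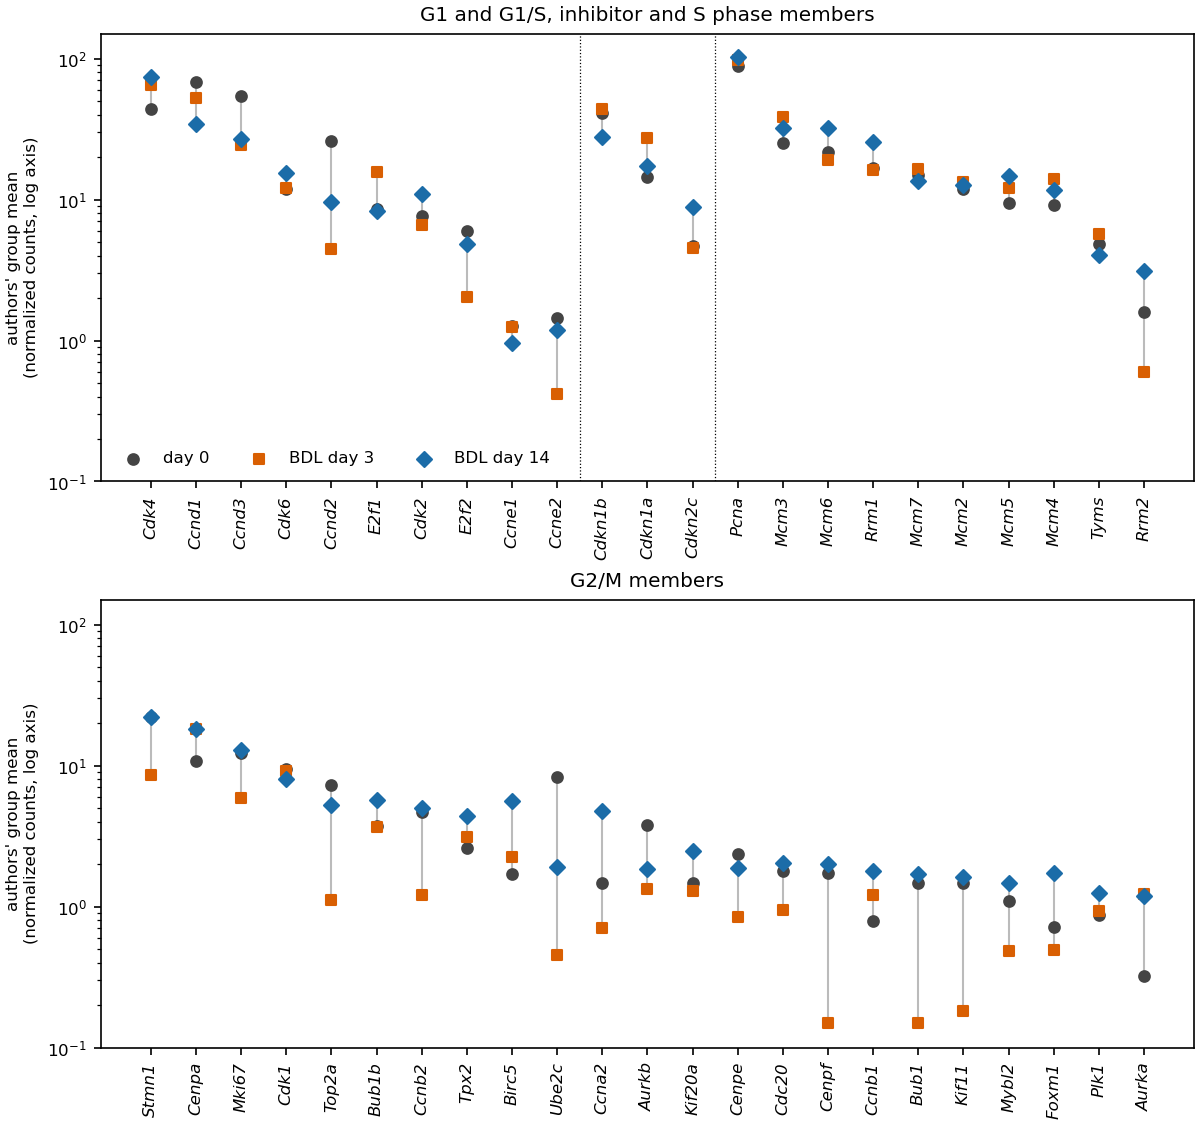
Authors' group mean of each member in normalized counts (log axis) on day 0 (circles), BDL day 3 (squares) and BDL day 14 (diamonds), with a grey line from the lowest to the highest of the 3; libraries per group are 3, 3 and 4. The S phase members lie close together over the 3 groups, except *Rrm2*, and the squares of *Bub1*, *Cenpf*, *Kif11*, *Top2a* and *Ube2c* lie well below their other 2 points.

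Of the genes of G1 and the G1/S step, the D-type cyclins had lower means after BDL and *Cdk4* had higher ones. *Ccnd2* (chr6:127125162-127152193, minus strand, mm10) had means of 26.2 normalized counts on day 0, 4.49 on BDL day 3 and 9.63 on BDL day 14. Its log2 ratio against day 0 was -2.54 (standard error 0.48) on BDL day 3 and -1.44 (0.44) on BDL day 14. The highest library of *Ccnd2*, at 39.3, could only belong to day 0, where it held 50.0% of the summed counts of the group. With that library left out, the ratios were -2.13 and -1.03, so the day 0 mean without it was still above both later means. *Ccnd3* was about as low at both times, with means of 54.0, 24.4 and 27.0 and log2 ratios of -1.15 (0.30) and -1.0 (0.29). *Ccnd1* differed from *Ccnd3* in timing, with means of 67.9, 52.7 and 34.2. Its ratio on BDL day 3 was within 1 standard error of no change, at -0.37 (0.38), and on BDL day 14 it was -0.99 (0.36). Between the later times it was -0.62, and -0.33 without the highest library.

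*Cdk4*, the kinase that D-type cyclins activate, had means of 43.7, 65.4 and 73.6 and the smallest spread of the members. Its log2 ratio was 0.58 (0.19) on BDL day 3, at the 1.5-fold line and not past it, and 0.75 (0.18) on BDL day 14. The paired kinase *Cdk6* had means of 11.9, 12.0 and 15.5, with ratios of 0.01 (0.60) and 0.38 (0.56). *Cdk2*, the partner of E-type and A-type cyclins, had means of 7.63, 6.61 and 10.9. It was not past the fold against day 0, and BDL day 14 was above BDL day 3 by 0.72 (0.30), or 0.56 without its highest library.

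Among the E2F factors, *E2f1* was higher on BDL day 3 alone, with means of 8.59, 15.6 and 8.36 and log2 ratios of 0.86 (0.36) and -0.04 (0.33) against day 0. *E2f2*, with means of 6.02, 2.05 and 4.84, went the other way on BDL day 3 by -1.55, but its standard error was 1.19. The E-type cyclins were measured at about 1 normalized count. *Ccne1* had means of 1.27, 1.25 and 0.961. *Ccne2* had 1.44, 0.419 and 1.19, with a BDL day 3 ratio of -1.78 (1.36). Its highest library could not be placed in a group. If it lay in day 0, that ratio was 0.43 without it. The BDL day 14 ratio to day 0 was then 1.94 in place of -0.28. In all, 1 of these 10 members was higher on BDL day 3 and 4 were lower, where 19.2% and 29.2% of all genes were. On BDL day 14, 1 was higher and 3 were lower, where 21.2% and 28.8% of all genes were. Over these 10 the median was -0.29 on the log2 scale at both times, and at BDL day 14 it was 0.03 with the groups scaled to a common sum.

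The 3 inhibitors moved in different directions. *Cdkn1a* (p21, a target of p53) had means of 14.4, 27.2 and 17.3, and its log2 ratio of 0.92 on BDL day 3 had a standard error of 0.71. Its highest library, at 45.3, could not be placed in a group. If it lay in BDL day 3, the ratio without it was 0.33, and -0.07 in place of -0.65 between the later times. *Cdkn1b* (p27, abundant in resting cells) had means of 41.3, 44.0 and 27.9, and was lower on BDL day 14 than on BDL day 3 by a log2 ratio of -0.66 (0.26), or -0.47 without its highest library, whereas its ratio of -0.57 (0.26) against day 0 was not past the fold. *Cdkn2c* (p18, an inhibitor of Cdk4 and Cdk6) was higher on BDL day 14, with means of 4.71, 4.51 and 8.88 and a ratio to day 0 of 0.91 (0.34).

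For the 10 genes of DNA synthesis the median log2 ratio to day 0 was 0.15 on BDL day 3 and 0.35 on BDL day 14, and it was 0.0 between the later times. On BDL day 3, 2 of 10 were higher and 1 lower, where 19.2% and 29.2% of all genes were. On BDL day 14, 3 were higher than on day 0 and none lower, where 21.2% and 28.8% of all genes were. From BDL day 3 to BDL day 14, 3 were higher and none lower, *Mcm6*, *Rrm1* and *Rrm2*, each also past 2 standard errors, which 11.3% of all genes were. Without the highest library *Mcm3* (0.48) and *Mcm4* (0.46) were not past the fold on BDL day 3, *Mcm5* (0.49) and *Rrm1* (0.58) on BDL day 14 against day 0, and *Mcm6* (0.52) between the later times. The sum of the 10 means was 204 on day 0, 233 on BDL day 3 and 252 on BDL day 14. *Pcna*, the sliding clamp of the replication fork, had the highest mean per kilobase of exon of the 46 members on day 0, at 36.8. Its means of 88.4, 97.3 and 102 differed by less than 1 standard error, with log2 ratios of 0.14 (0.41) and 0.21 (0.38).

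The 6 subunits of the MCM helicase, which unwinds DNA at the fork as 1 ring, did not move as a block. *Mcm3* had means of 25.1, 38.5 and 32.3 and was higher on BDL day 3 by 0.62 (0.27). *Mcm4* had 9.21, 13.9 and 11.7, and its ratio of 0.59 (0.52) on BDL day 3 lay within about 1 standard error. *Mcm6* was instead level on BDL day 3 and higher later, with means of 21.6, 19.2 and 32.4 and a ratio of BDL day 14 to BDL day 3 of 0.75 (0.30). *Mcm5*, with 9.50, 12.1 and 14.8, was past the fold on BDL day 14 by 0.64 (0.51). *Mcm2* (11.9, 13.3 and 12.7) and *Mcm7* (15.0, 16.5 and 13.5) had ratios to day 0 between -0.15 and 0.16 on the log2 scale, each within 1 standard error of no change.

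The ribonucleotide reductase subunits differed from each other. *Rrm1*, the large subunit, had means of 16.7, 16.1 and 25.6 and was higher on BDL day 14 than on day 0 by 0.62 (0.30). *Rrm2*, the small subunit, which is made in S phase, had means of 1.59, 0.596 and 3.11. Its BDL day 14 to BDL day 3 ratio was 2.38 (1.02). Its ratio on BDL day 3 was -1.42 (1.09). The highest library of *Rrm2*, at 4.30, could not be placed in a group. If it lay in day 0, that ratio was 1.34 without it, so the direction is not settled. *Tyms*, which makes thymidylate, had means of 4.81, 5.70 and 4.06 and was past the fold in none of the comparisons.

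The 22 kept genes of G2 and mitosis had a median log2 ratio of -1.06 on BDL day 3 against day 0, of 0.21 on BDL day 14 against day 0, and of 1.24 between BDL day 3 and BDL day 14. On BDL day 3, 13 of them were lower and 2 higher, *Cenpa* and *Ccnb1*. On BDL day 14, 8 were higher than on day 0 and 2 lower, *Ube2c* and *Aurkb*, and 16 were higher than on BDL day 3 with none lower. The medians were the same with the 3 members at the floor set to their bounds. The sum over the 23 means was 102 on day 0, 63.5 on BDL day 3 and 115 on BDL day 14. This sum was thus lowest on BDL day 3, while the S phase sum was not. Members with high means weigh most in such sums, *Stmn1* (22.3, 8.61 and 22.0) in the first and *Pcna* (88.4, 97.3 and 102) in the second. The median of the 23 means was 1.79, 1.2 and 2.03.

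These counts have to be read against genes of like level, because 23 of the 46 members, most but not all of them G2/M, had an overall mean between 1 and 5. The G2/M members *Stmn1* (18.1), *Cenpa* (15.8), *Mki67* (10.6) and *Cdk1* (8.78) lay above that range. The match to all 22 is therefore approximate. Of the 3485 genes kept in that range, 55.8% were lower on BDL day 3 than on day 0, which is near the 13 of 22 of the G2/M members. Of the same genes, 35.0% were higher on BDL day 14 than on BDL day 3, whereas 16 of 22 G2/M members were. Against day 0, 18.3% of the genes of like level were higher and 50.5% lower on BDL day 14, where 8 and 2 of 22 were. Past both the fold and 2 standard errors, 8 of 22 were lower on BDL day 3, against 15.0% of all genes and 23.7% of those of like level. With genes at the floor set to it, *Bub1* and *Cenpf* no longer passed 2 standard errors and 6 of 22 were lower, against 14.8% and 23.0%. By the same measure 8 of 22 were higher on BDL day 14 than on BDL day 3, against 11.3% and 12.5%, and with genes at the floor set to it still 8, against 10.8% and 10.5%.

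Some of these calls could have rested on 1 library. For most members the group of the highest library was not known, and it was left out where this brought each ratio nearest to no change. The counts that follow are thus a possible case for each comparison. Leaving a library out could also make a call, where only the compared groups could hold it. With each gene's highest library left out in this way, 10 of 22 G2/M members were lower on BDL day 3 and 2 higher, where 41.9% and 12.0% of the genes of like level were. On BDL day 14, 6 were then higher than on day 0 and 3 lower, where 14.9% and 37.8% of the genes of like level were. From BDL day 3 to BDL day 14, 12 of 22 were higher and none lower, where 26.4% and 19.7% of those genes were. Counted in this way, with each comparison taken apart, the members that lost a call on BDL day 3 were *Cenpa*, *Cenpe*, *Mki67* and *Mybl2*. On BDL day 14 against day 0 they were *Aurkb*, *Bub1b*, *Cenpa* and *Tpx2*, and between the later times *Birc5*, *Bub1b*, *Cdc20* and *Cenpe*. Some members gained a call. *Mybl2* was then higher on BDL day 3, at 0.66. On BDL day 14 against day 0 *Cenpe* was then higher, at 0.81, and *Cdc20* (-0.59) and *Cenpf* (-1.17) were lower.

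**Figure D2:**
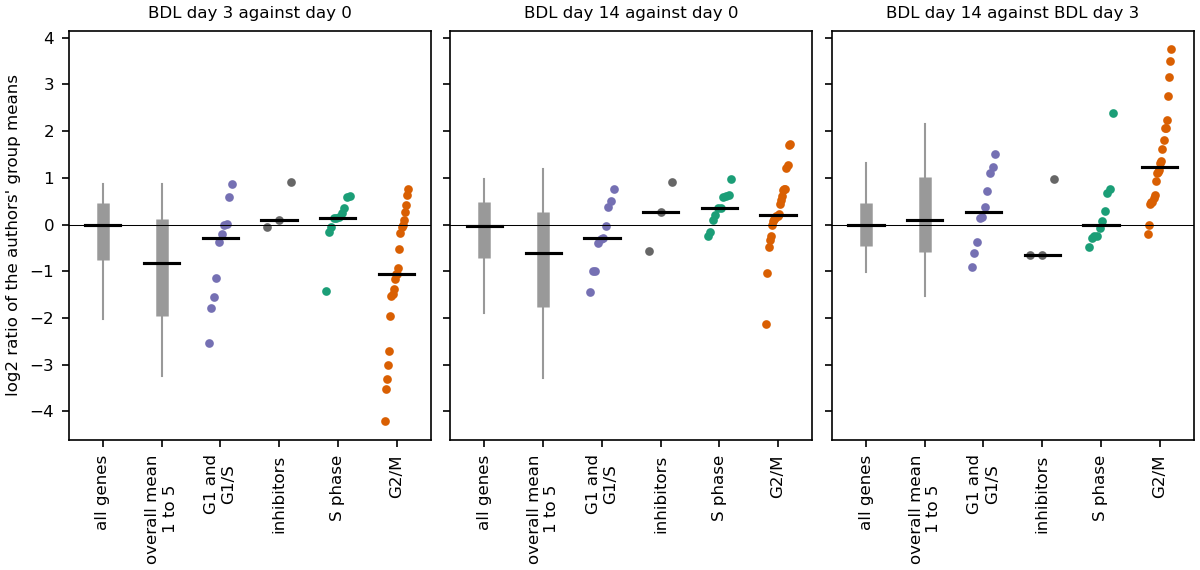
Log2 ratios of the authors' group means in the 3 comparisons, for all genes kept, for genes kept with an overall mean of 1 to 5 (grey boxes from the 25th to the 75th percentile, thin lines from the 10th to the 90th), and for each member of the 4 groups (points); black bars are medians. The G2/M members have a median of -1.06 at BDL day 3, where the genes of like level are also below 0, and of 1.24 between BDL day 3 and BDL day 14.

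The lowest log2 ratio of the members on BDL day 3 was that of *Ube2c*, the ubiquitin-conjugating enzyme that works with the anaphase-promoting complex. Its means were 8.36 on day 0, 0.453 on BDL day 3 and 1.90 on BDL day 14, resting on about 193, 16 and 121 reads. The log2 ratio was -4.21 (0.71) on BDL day 3 and -2.14 (0.66) on BDL day 14. Its highest library, 9.72, could only belong to day 0, where it held 38.8% of the sum, and without it the BDL day 3 ratio was -4.08. *Top2a*, the topoisomerase that untangles sister chromatids, had means of 7.34, 1.12 and 5.28, with a ratio of -2.71 (0.47) on BDL day 3 and of 2.24 (0.44) from BDL day 3 to BDL day 14. On BDL day 14 it was within about 1 standard error of day 0, at -0.48 (0.44), which *Ube2c* was not.

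Genes of the spindle and its checkpoint included the 3 members at the floor on BDL day 3. *Bub1*, a spindle checkpoint kinase, had means of 1.48, 0.150 and 1.69, *Cenpf*, a kinetochore protein, 1.73, 0.150 and 2.02, and *Kif11*, the motor that separates the spindle poles, 1.46, 0.181 and 1.62. On BDL day 3 they rested on an estimated 3 or 4 reads each in all, against 31 to 38 on day 0. Against the floor they were at least 5.08-fold, 5.93-fold and 5.01-fold lower than on day 0, and BDL day 14 was at least 5.80-fold, 6.93-fold and 5.56-fold higher. The highest library of *Cenpf*, at 5.77, lay in BDL day 14 and held 71.4% of its sum there, so the BDL day 14 mean of *Cenpf* rested mainly on 1 library, and without it the ratio to day 0 was -1.17 in place of 0.22. *Bub1b*, the partner checkpoint kinase, was level on BDL day 3, with means of 3.70, 3.66 and 5.69.

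The cyclins of G2 and mitosis differed in pattern. *Ccnb2* had means of 4.66, 1.20 and 5.02, and its log2 ratio was -1.96 (0.75) on BDL day 3 and 2.06 (0.70) from there to BDL day 14. *Ccna2*, cyclin A2, had means of 1.46, 0.705 and 4.75. It was higher on BDL day 14 than on BDL day 3 by 2.75 (1.10), with 50.6% of the BDL day 14 sum in 1 library. *Ccnb1* had means of 0.784, 1.21 and 1.80 and the widest spread of the members, and none of its ratios exceeded 1 standard error. *Cdk1*, the kinase these cyclins bind, was nearly level, with means of 9.46, 9.16 and 7.97.

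*Stmn1*, a microtubule regulator, was the G2/M member with the most even pair of outer groups, with means of 22.3, 8.61 and 22.0. Its log2 ratio was -1.37 (0.46) on BDL day 3 and -0.02 (0.43) on BDL day 14. *Mki67*, the proliferation marker Ki-67, had means of 12.3, 5.90 and 12.9, so it too was lowest on BDL day 3. At -1.06 its BDL day 3 ratio was under 2 standard errors of 0.75. *Cenpe*, a kinetochore motor (2.36, 0.844 and 1.88), *Cdc20*, an activator of the anaphase-promoting complex (1.79, 0.942 and 2.03), and *Mybl2* (1.09, 0.483 and 1.47) also had their lowest mean on BDL day 3, each within 2 standard errors of day 0. The highest libraries of *Cenpe*, *Mki67* and *Mybl2* could not be placed in a group. If they lay in day 0, the BDL day 3 ratios without them were -0.51 for *Mki67* and 0.66 for *Mybl2*. For *Cenpe* the ratio was then -0.35 in place of -1.48. If that of *Cenpe* lay in BDL day 14 instead, its ratio from BDL day 3 to BDL day 14 was 0.03 in place of 1.16. These cases for *Cenpe* exclude each other. *Aurkb*, the kinase of the chromosomal passenger complex, was low at both later times, with means of 3.81, 1.33 and 1.86 and ratios of -1.52 (0.72) and -1.03 (0.67). Its highest library, at 7.17, could not be placed in a group. If it lay in day 0, these were -0.68 and -0.20 without it, and the BDL day 14 call did not hold.

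The other G2/M members were not past the fold downward on BDL day 3. *Cenpa*, the histone variant of centromeres, had means of 10.7, 18.1 and 18.1, with a ratio of 0.76 at both times and standard errors of 0.42 and 0.39. *Birc5* (survivin), which sits in the same complex as Aurkb, had means of 1.69, 2.25 and 5.61. Of its BDL day 14 sum, 61.5% came from 1 library of 13.8, and without it the ratio to day 0 was 0.77 in place of 1.73 (0.98). *Foxm1* had means of 0.717, 0.495 and 1.74, with 49.3% of the BDL day 14 sum in 1 library. *Tpx2*, a spindle assembly factor (2.61, 3.13 and 4.39), *Kif20a*, a motor of cytokinesis (1.48, 1.30 and 2.47), and *Plk1*, a mitotic kinase (0.872, 0.926 and 1.25), had their highest mean on BDL day 14, by less than 1 standard error over day 0. *Aurka*, the spindle pole kinase, was at the floor on day 0 with 0.321, and its means of 1.22 and 1.18 were at least 2.38-fold and 2.30-fold higher, but it did not pass the filter and entered no count.

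**Figure D3:**
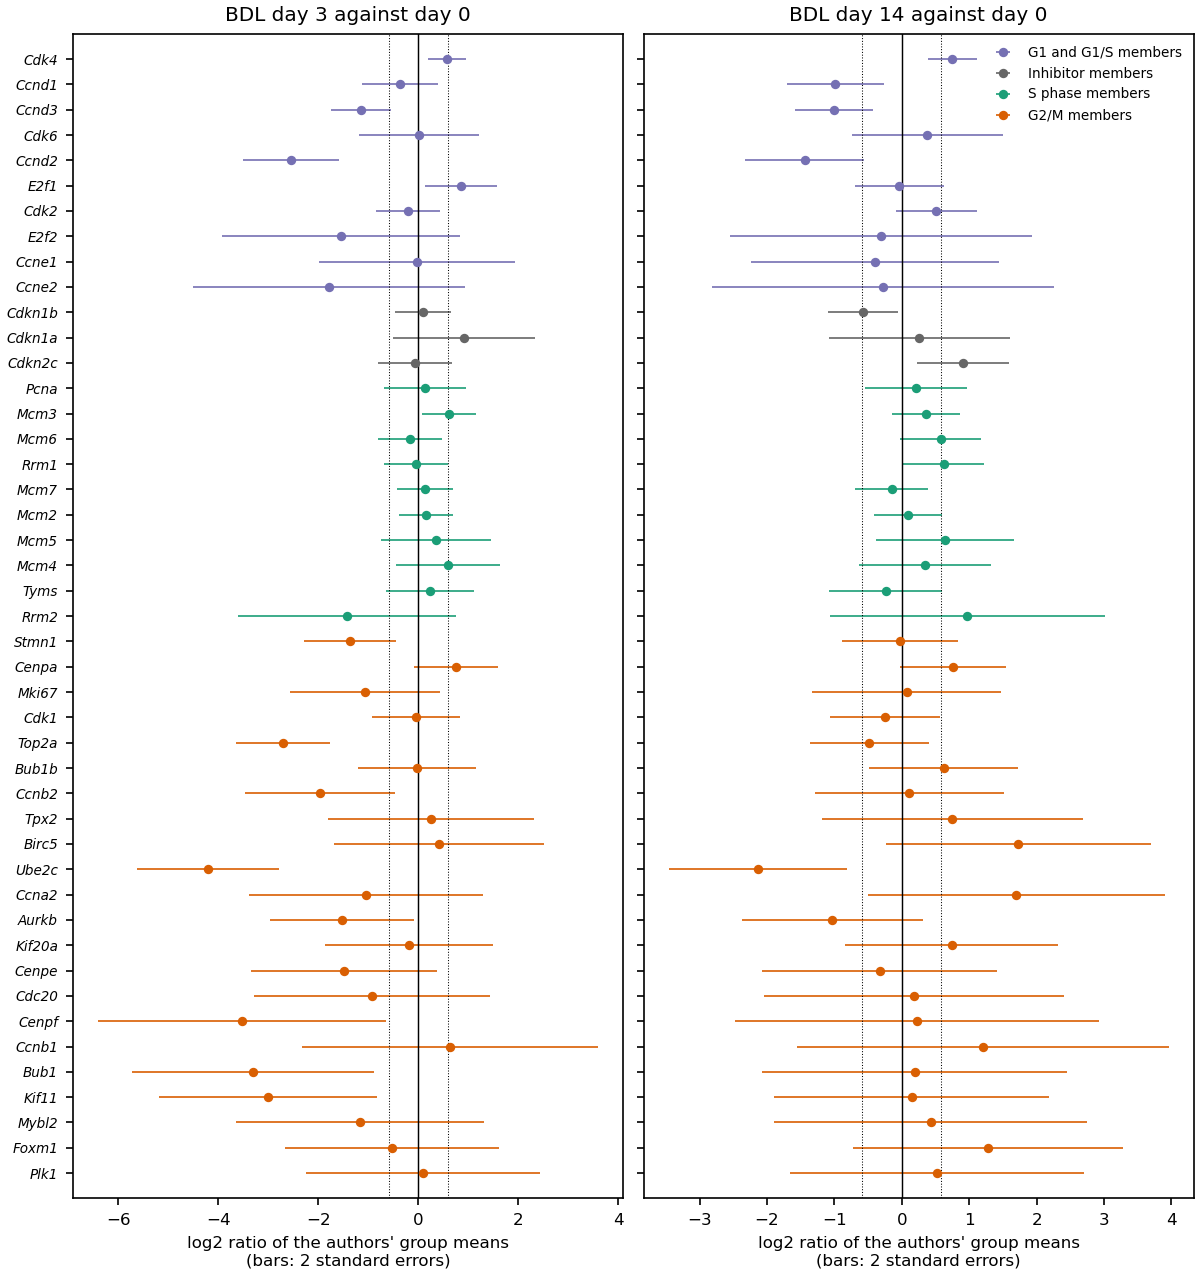
Log2 ratio of the authors' group means against day 0 for the 45 kept members, at BDL day 3 (left) and BDL day 14 (right), coloured by phase; bars are 2 standard errors on each side and dotted lines mark 1.5-fold, and the points of *Bub1*, *Cenpf* and *Kif11* at BDL day 3 are ratios to a mean at the floor. The bars of *Ube2c*, *Top2a*, *Ccnd2* and *Ccnd3* at BDL day 3 lie wholly below 0, and the bars of most G2/M members at BDL day 14 cross 0.

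Past both the fold and 2 standard errors, 2 members were higher on BDL day 3 (*E2f1* and *Mcm3*) and 10 were lower (*Ccnd2*, *Ccnd3*, *Stmn1*, *Top2a*, *Ccnb2*, *Ube2c*, *Aurkb*, *Cenpf*, *Bub1* and *Kif11*), where 11.4% and 15.0% of all genes were. With genes at the floor set to it, *Bub1* and *Cenpf* dropped out and 8 were lower, where 11.2% and 14.8% of all genes were higher and lower. On BDL day 14 against day 0, 3 were higher (*Cdk4*, *Cdkn2c* and *Rrm1*) and 4 lower (*Ccnd1*, *Ccnd2*, *Ccnd3* and *Ube2c*), where 13.2% and 16.8% of all genes were. From BDL day 3 to BDL day 14, 14 were higher and 2 lower, where 11.3% and 10.6% of all genes were. The 2 lower were *E2f1*, by -0.90 (0.33), and *Cdkn1b*.

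Per kilobase of exon, the S phase members had a median mean of 2.47, 3.38 and 3.16 normalized counts in the 3 groups, and the G2/M members 0.497, 0.421 and 0.631. The median number of reads estimated behind a group mean was 312, 614 and 924 for the S phase members and 39, 46 and 129 for the G2/M members. The G2/M values thus rest on far fewer reads, and their standard errors were wider.

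The markers of several cell types were lower on BDL day 3 as well. On that day 6 of 6 mesenchymal, 5 of 6 endothelial, 8 of 8 cholangiocyte, 4 of 4 erythroid, 5 of 5 B cell and 5 of 6 T and NK cell markers were lower than on day 0, while 7 of 8 macrophage markers were higher. Lower too were 6 of 8 hepatocyte and 4 of 6 neutrophil markers, and 4 of 5 Kupffer cell markers were higher. Over all genes kept, 29.2% were lower and 19.2% higher. Of the markers of recruited monocytes and macrophages 3 of 6 were higher and 1 lower, and of the 4 dendritic cell markers 1 was higher and 3 lower. From BDL day 3 to BDL day 14, 6 of 6 mesenchymal, 4 of 6 endothelial and 3 of 8 cholangiocyte markers were higher, as were 5 of 6 markers of recruited monocytes and macrophages and 3 of 4 dendritic cell markers. Of the macrophage markers 1 of 8 was higher, and no B cell, T and NK cell, erythroid, hepatocyte, neutrophil or Kupffer cell marker was. Over all genes kept, 21.2% were higher. Against day 0, 6 of 8 cholangiocyte markers were lower on BDL day 14 and 1 was higher. No marker of these lists was at the floor in all 3 groups, and the table does not say which cells held the G2/M transcripts.

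Further genes of the same pathways, taken as whole lists of known cell cycle genes, were counted in the same way. To set beside the counts of each of these lists, 19.2% of all genes kept were higher and 29.2% lower on BDL day 3. The shares were 21.2% and 28.8% on BDL day 14 against day 0, and 21.2% and 19.7% between the later times. Of 29 kept S phase genes outside the members, 8 were higher and 8 lower on BDL day 3, and 12 were higher and 4 lower on BDL day 14. Of these, *Rfc2*, a clamp loader subunit, had means of 20.9, 22.4 and 41.4, *Nasp*, a histone chaperone, 22.5, 20.6 and 23.0, and *Slbp*, which binds histone mRNA, 29.2, 18.9 and 18.4. *Cenpu* was at the floor on day 0 and at least 3.83-fold and 4.28-fold higher later. *Clspn* had means of 1.63, 0.356 and 1.90, with 64.9% of its BDL day 14 sum in 1 library. *Cdc6*, the origin licensing factor, had 2.87, 1.74 and 1.64, but 88.7% of its day 0 sum was in 1 library, and without it the ratios to day 0 were 1.84 and 1.76 in place of -0.72 and -0.81.

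Of 32 kept G2/M genes outside the members, 6 were higher and 15 lower on BDL day 3, with a median log2 ratio of -0.47. On BDL day 14 against day 0, 9 were higher and 9 lower, and against BDL day 3, 14 were higher and 5 lower, with medians of -0.07 and 0.50. *Nusap1*, a spindle protein, had means of 6.07, 0.365 and 2.41 and a ratio of -4.06 (0.96) on BDL day 3, close in size to that of *Ube2c*. *Hmgb2*, a chromatin protein, had 60.6, 39.4 and 58.3. *Cks2*, a subunit that binds Cdk1, was lowest on BDL day 14, with means of 10.4, 7.89 and 3.05. *Tubb4b* (44.3, 71.8 and 86.3), *Jpt1* (68.9, 91.5 and 79.8), *Gas2l3* (4.61, 11.0 and 16.9) and *Nuf2* (0.576, 1.21 and 2.15) had higher means after BDL. Without the highest library the BDL day 3 log2 ratios were 0.06 for *Gas2l3* in place of 1.25, -0.22 for *Nuf2* in place of 1.07, 0.30 for *Tubb4b* and 0.16 for *Jpt1*. The 15 of 32 that were lower on BDL day 3 stand beside 29.2% of all genes and 55.8% of genes with an overall mean of 1 to 5. Several of the 32 had means over all libraries well above that range, such as *Jpt1* (80.0), *Tubb4b* (69.4) and *Hmgb2* (53.3). The second share is therefore not matched to the whole list.

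Of 26 other kept regulators of G1, the RB family and p53, 1 was higher and 7 lower on BDL day 3, and 5 were higher and 6 lower on BDL day 14. *Cdkn1c* (p57) had means of 6.41, 1.08 and 6.62 and a ratio of -2.57 (0.84) on BDL day 3. The stress-response gene *Gadd45b* had 67.8, 12.9 and 21.0, with its highest library in day 0, and its relative *Gadd45g* 66.3, 57.4 and 22.9. The antiproliferative genes *Btg1* (148, 104 and 112) and *Btg2* (89.5, 71.3 and 62.6) were highest on day 0. *Lin37*, a subunit of the DREAM complex, had 8.86, 15.5 and 7.08, and *E2f6* 2.83, 4.23 and 9.09. Of 26 kept origin and fork genes, 4 were higher and 5 lower on BDL day 3, and 6 and 4 on BDL day 14. Among them *Tk1*, thymidine kinase, had means of 29.4, 76.1 and 9.31, with its highest library, 112, in BDL day 3 and a ratio of -3.03 (0.61) from BDL day 3 to BDL day 14. *Orc2*, an origin recognition subunit, had 5.40, 12.5 and 16.3, *Orc3* 16.1, 19.2 and 16.6, *Rpa1*, which binds single-stranded DNA, 27.2, 36.4 and 44.4, *Gins3* 0.732, 2.44 and 1.70, and *Pole*, a replicative polymerase, 2.18, 0.688 and 2.44.

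Promoter sequences from RefSeq (GRCm38.p6, from 250 bases before to 50 after the gene's start) were matched to 36 of the 46 members. They were searched on both strands for 3 motifs known in these pathways. The CHR element was searched as TTTGAA or TTCGAA, the NF-Y box as CCAAT, and the E2F site as TTTGGCGC, TTTCGCGC, TTTCCCGC or TTTGCCGC. A CHR match was found in 13 of 17 G2/M promoters (76.5%), in 2 of 9 S phase promoters (22.2%) and in 21.7% of the 27025 genes with a promoter. All 13 also held an NF-Y box, which 41.1% of all genes held, and both together were found in 8.61% of all genes. An E2F match was found in 4 of 9 S phase promoters (44.4%), in 1 of 17 G2/M promoters (5.88%) and in 2.6% of all genes. The matches are a description of these letters and not of bound sites.

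**Figure D4:**
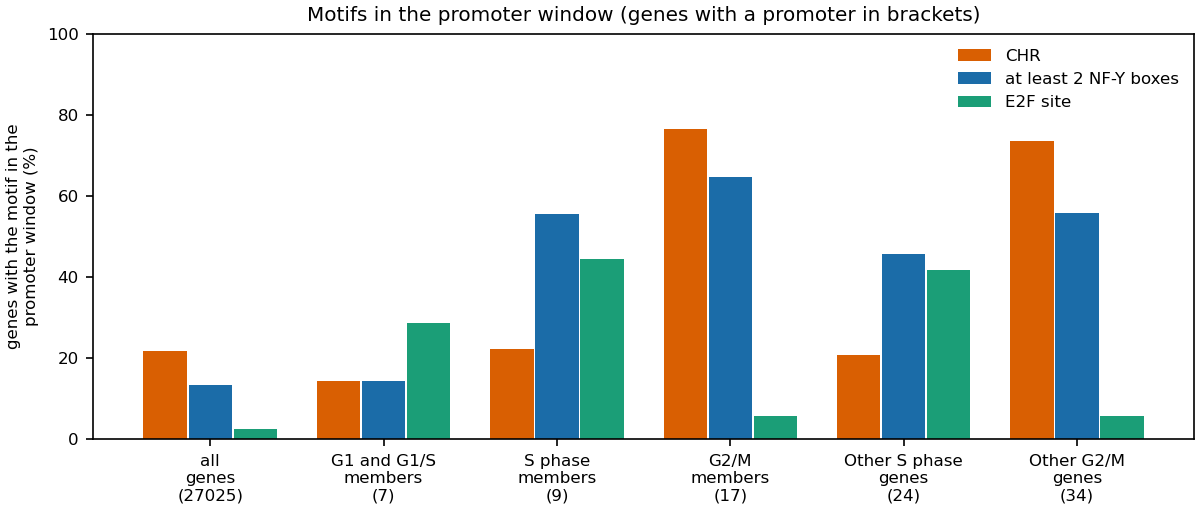
Share of genes (%, axis from 0) whose promoter window holds a CHR match, at least 2 NF-Y boxes or an E2F match, for all genes and for the gene lists, with the number of genes that had a promoter in brackets. CHR bars are highest for the G2/M members (76.5%) and the other G2/M genes (73.5%), and E2F bars for the S phase members (44.4%) and the other S phase genes (41.7%).

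The CHR match was found in G2/M members that were low on BDL day 3 and in others. Of the kept G2/M members with a promoter, 8 of the 10 that were lower on BDL day 3 held one, all but *Cenpe* and *Mybl2*, and so did 4 of the other 6, all but *Birc5* and *Ccnb1*. The promoters of 6 members are printed to show this, 3 of members low on BDL day 3, 2 of G2/M members that were not, and 1 of an S phase member with an E2F match. Each runs 5′ to 3′ on the gene's strand over 280 bases, the last 30 of which begin at the start, and capitals mark the matches on either strand.
*Top2a*, chr11:99024160-99024439, minus strand: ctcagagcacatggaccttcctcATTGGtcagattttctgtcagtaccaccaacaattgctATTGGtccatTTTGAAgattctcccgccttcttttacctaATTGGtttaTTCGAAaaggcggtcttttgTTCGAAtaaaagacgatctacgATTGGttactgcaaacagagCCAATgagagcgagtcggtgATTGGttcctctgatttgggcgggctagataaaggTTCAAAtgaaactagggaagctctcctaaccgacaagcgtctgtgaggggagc
*Ccnb2*, chr9:70421525-70421804, minus strand: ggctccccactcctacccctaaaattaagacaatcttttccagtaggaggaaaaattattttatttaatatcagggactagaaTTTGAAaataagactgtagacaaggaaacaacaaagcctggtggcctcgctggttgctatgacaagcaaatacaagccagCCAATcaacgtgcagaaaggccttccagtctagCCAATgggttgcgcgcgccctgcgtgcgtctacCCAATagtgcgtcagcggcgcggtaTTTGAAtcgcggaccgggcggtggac
*Ube2c*, chr2:164769679-164769958, plus strand: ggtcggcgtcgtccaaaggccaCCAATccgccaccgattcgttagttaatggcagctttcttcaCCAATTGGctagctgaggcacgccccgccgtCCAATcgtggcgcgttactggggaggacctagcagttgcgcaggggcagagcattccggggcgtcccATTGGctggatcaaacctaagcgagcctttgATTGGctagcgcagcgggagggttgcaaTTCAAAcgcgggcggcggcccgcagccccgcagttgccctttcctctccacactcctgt
*Cdk1*, chr10:69352883-69353162, minus strand: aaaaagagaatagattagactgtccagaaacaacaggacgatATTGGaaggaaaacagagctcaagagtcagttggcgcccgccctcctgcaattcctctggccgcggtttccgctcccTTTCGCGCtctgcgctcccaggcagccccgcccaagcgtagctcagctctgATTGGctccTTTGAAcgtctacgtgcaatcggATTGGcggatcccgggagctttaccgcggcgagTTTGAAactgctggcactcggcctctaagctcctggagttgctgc
*Cenpa*, chr5:30666636-30666915, plus strand: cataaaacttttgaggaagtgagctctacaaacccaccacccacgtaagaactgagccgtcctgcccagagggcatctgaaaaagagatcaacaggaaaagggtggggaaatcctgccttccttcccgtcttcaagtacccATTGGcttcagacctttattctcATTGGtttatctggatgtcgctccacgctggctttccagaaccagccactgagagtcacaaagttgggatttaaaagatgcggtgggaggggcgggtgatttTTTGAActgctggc
*Mcm5*, chr8:75109259-75109538, plus strand: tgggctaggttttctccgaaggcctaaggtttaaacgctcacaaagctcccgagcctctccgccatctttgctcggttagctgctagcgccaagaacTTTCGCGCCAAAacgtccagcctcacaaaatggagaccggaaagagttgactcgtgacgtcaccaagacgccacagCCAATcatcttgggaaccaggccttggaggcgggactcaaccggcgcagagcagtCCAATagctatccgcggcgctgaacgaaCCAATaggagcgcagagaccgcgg

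The *Top2a* promoter held 4 CHR matches and 6 NF-Y boxes, that of *Ccnb2* 2 and 3, and that of *Ube2c* 1 and 6, a pair of which overlap on opposite strands in CCAATTGG and were counted apart. The *Cdk1* promoter held 2 CHR matches, 3 NF-Y boxes and the only E2F match among the G2/M promoters, and *Cdk1* was level over the 3 groups. The *Cenpa* promoter held 1 CHR match and 2 NF-Y boxes, and its means were higher after BDL. The *Mcm5* promoter held 3 NF-Y boxes, no CHR match and 2 E2F matches that overlap in the run TTTCGCGCCAAA.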

How the data were processed

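GFP+ liver cells of 3 groups were sequenced as mRNA. The authors aligned the reads with STAR (2.6.1d in the submitters' processing notes; the methods text names a different release) in Partek Flow to mm10, counted them on GENCODE M18 genes and normalized by the upper quartile. How reads that match pseudogene copies were counted, and whether strand was used, is not given in the sources used here. The deposited signal values are the authors' mean of normalized counts per group, with the sum, arithmetic mean, geometric mean and highest count over all libraries. There are 0 columns of single libraries. Columns of the authors' own comparisons (p-values, FDR, ratios, fold changes and limits) were not used. Of 12 labelled libraries, 2 of BDL day 14, not named, were left out by the authors for too few reads. Group sizes of 3, 3 and 4 gave back the overall mean within 0.469% for 99% of genes. Whether a library came from 1 mouse is not stated outright in the sources used here.

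Ratios of group means, the derived spread and the counts were computed with Python 3.11.15, numpy 2.4.6 and pandas 2.3.3, without a pseudocount. The standard error of a log2 ratio was the spread times the square root of the summed inverse group sizes. The script for the spread was tested on simulated data, where unchanged genes passed 2 standard errors more often than under a normal distribution, so 2 standard errors are a measure of size and not a test, and a tolerance on the recovered ratio was widened once after the first run missed it. Each gene's highest count was assigned to a group where the sums of both other groups fell short of it. It was left out of the group that could hold it or, where several could, of the one that brought the ratio closest to no change. Exon lengths came from GENCODE vM21. Members and lists were chosen with earlier results of these data known. The 2 standard errors, the class of genes with means of 1 to 5, the reading of the lowest mean as 1 read, the genes set to the floor, the marker sums without 1 gene, the list counts without the highest library and the promoters printed were chosen after the values were seen. That reading is approximate, since the spacing between low means was 12.7% to 24.6% of the lowest mean. Every member is given. From each other list the text names the 3 genes with the highest overall mean and those with the largest and smallest ratio to day 0. Alternatives were other scalings, a pseudocount of 1, other filters, a fold of 2 and the highest library left out.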

Additional observations from a re-analysis of the deposited data

How the results depend on the processing

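No test was possible on group means, so the calls are sizes, and the errors assume the same log-scale spread in the 3 groups. No paired analysis was possible because the table holds no value per library, and for the same reason single libraries other than the highest could not be left out in turn. The number of members past the fold on BDL day 3 against day 0 was 24, and became 9 with an overall mean of at least 10 (which left 19 members) and 12 with 2 standard errors added after seeing the data. On BDL day 14 against day 0 it was 18, and became 7 with the mean filter, 7 with a fold above 2 and 7 with 2 standard errors. Between BDL day 3 and BDL day 14 it was 28, and became 9 with the mean filter, 18 with a fold above 2, 18 without each gene's highest library and 16 with 2 standard errors.

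Scaling the groups to a common sum moved the median log2 ratio of all genes from -0.02 to 0.11 on BDL day 3 against day 0, from -0.04 to 0.29 on BDL day 14 against day 0, and to 0.19 between the later times. Under it the BDL day 14 split against day 0 was 21 higher and 5 lower in place of 13 and 5, and the change from BDL day 3 to 14 had 28 higher and 1 lower in place of 24 and 4. The G2/M medians under it were -0.93, 0.53 and 1.43, so they kept their direction, while the G1 and G1/S median on BDL day 14 went from -0.29 to 0.03. Without each gene's highest library the G2/M medians were -0.52, 0.03 and 0.83, and the G1 and G1/S median on BDL day 14 against day 0 was 0.12. Of 25 members past the fold on BDL day 3, *Aurka* included, 16 stayed past it in the same direction without that library. That count takes the placement nearest to no change. Another possible placement could reverse the sign of some of these 16, such as *Cdc20* and *Ccnb1*. The highest libraries of *Ccne2*, *Mybl2* and *Rrm2* could not be placed in a group. If they lay in day 0, the BDL day 3 ratios without them were 0.43, 0.66 and 1.34, each of the other sign. If that of *Ccne2* lay in BDL day 14 instead, its ratio of BDL day 14 to BDL day 3 was -0.25. For *Ccne2* both cannot hold at once. The cause was not tested. Low read numbers limit the G2/M members most, at a median of 39 estimated reads on day 0.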
